A study of Homo sapiens with 2 samples.

Results

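Transcript levels of 10 genes that report on and restrain the extracellular signal-regulated kinases (ERK) were compared between ACHN cells given an shRNA against Kindlin-2 and ACHN cells given a control shRNA. The genes were the MAP kinase phosphatases DUSP4, DUSP5 and DUSP6, the Sprouty genes SPRY1, SPRY2 and SPRY4, the Spred genes SPRED1 and SPRED2, and the ETS transcription factors ETV4 and ETV5. They were chosen by name, with earlier results of these data known. Each of the 10 had 1 transcript cluster, the set of probes that stands for a gene, annotated with its symbol alone, out of 18417 genes in the table. ACHN is an established human renal carcinoma line, which the labels call clear cell. Kindlin-2, the product of FERMT2, is an adaptor that binds the cytoplasmic tails of beta integrins. Transfected cells of both groups were grown in minimum essential medium with 10% serum and 400 µg/ml of the selection drug G418, and total RNA was hybridised to Affymetrix Human Gene 1.0 ST arrays. The Kindlin-2 shRNA group was 1 array and the control shRNA group was 1 array, so every value is a single measurement, no difference has a replicate check and no test was possible. Whether the transfected cells were clones or pools, and how many shRNA sequences were used, is not stated in the labels.

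ERK signalling runs from receptor tyrosine kinases through RAS, RAF and MEK to ERK, and active ERK raises the transcription of genes that then shut the cascade down. DUSP phosphatases remove the activating phosphates from ERK, whereas Sprouty and Spred proteins act further up, between the receptor and RAF. ETV4 and ETV5 belong to the PEA3 group of ETS factors, whose transcription is raised by receptor tyrosine kinase signalling. In the developing mouse kidney they act downstream of the receptor RET in the ureteric bud.

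All values are log2 values as deposited. A difference is the value on the Kindlin-2 shRNA array minus that on the control array, and a fold is that difference on the linear scale. FERMT2 itself had a log2 value of 8.26 on the Kindlin-2 shRNA array and 9.37 on the control array, that is, 46.4% of the control level. The median over all transcript clusters was 6.53 on the Kindlin-2 shRNA array and 6.51 on the control array. Genes whose higher value reached 6.52, the median of the whole table, were kept as the background (11822 genes), and they had a median difference of -0.02. Of the 10 genes, 9 were kept, each with both values at or above that floor, so none of them entered through its higher array alone. DUSP4 was below it on both arrays. Renal epithelial markers were present in part. PAX8, a renal lineage factor, had log2 values of 11.29 on the Kindlin-2 shRNA array and 11.43 on the control array, whereas the proximal tubule receptors LRP2 and CUBN and the renal factor EMX2 were below the floor on both.

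Promoter sequences are shown for a Sprouty pair and a Spred pair whose members differed from each other on the arrays, and for the phosphatase DUSP6. The RefSeq table (GRCh38.p14) held windows for 6 of the 10 genes. For 5 of these a window lay directly before the RefSeq gene boundary, and the 250 bases before the start are given 5′ to 3′ in the direction of the gene. Capitals mark the ETS core GGAA (TTCC where it lies on the other strand) and TGACG, the shortened cAMP response element, on either strand. The DUSP6 window lies at chr12:89352502-89352751 (minus strand), that of SPRY2 at chr13:80341127-80341376 (minus strand), that of SPRED2 at chr2:65432600-65432849 (minus strand), that of SPRY1 at chr4:123396545-123396794 (plus strand) and that of SPRED1 at chr15:38252586-38252835 (plus strand).
DUSP6: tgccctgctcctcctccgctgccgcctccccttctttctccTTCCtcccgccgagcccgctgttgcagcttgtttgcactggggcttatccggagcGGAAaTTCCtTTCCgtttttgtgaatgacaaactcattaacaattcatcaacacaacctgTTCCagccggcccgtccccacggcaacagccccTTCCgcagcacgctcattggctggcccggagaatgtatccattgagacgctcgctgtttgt
SPRY2: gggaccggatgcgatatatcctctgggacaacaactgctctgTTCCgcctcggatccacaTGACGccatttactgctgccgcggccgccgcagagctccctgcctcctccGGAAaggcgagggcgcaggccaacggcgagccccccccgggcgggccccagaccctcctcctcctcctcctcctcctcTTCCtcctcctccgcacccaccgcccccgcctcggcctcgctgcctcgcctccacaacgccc
SPRED2: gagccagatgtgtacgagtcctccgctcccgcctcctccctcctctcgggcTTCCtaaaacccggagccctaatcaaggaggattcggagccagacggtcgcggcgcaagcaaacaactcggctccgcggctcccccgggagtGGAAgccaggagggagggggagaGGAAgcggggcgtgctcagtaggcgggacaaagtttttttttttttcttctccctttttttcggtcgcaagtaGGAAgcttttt
SPRY1: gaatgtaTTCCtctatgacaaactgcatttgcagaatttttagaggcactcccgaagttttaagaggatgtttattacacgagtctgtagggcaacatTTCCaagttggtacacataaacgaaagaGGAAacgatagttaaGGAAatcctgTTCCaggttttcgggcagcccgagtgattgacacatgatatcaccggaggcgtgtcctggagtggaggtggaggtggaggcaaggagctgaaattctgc
SPRED1: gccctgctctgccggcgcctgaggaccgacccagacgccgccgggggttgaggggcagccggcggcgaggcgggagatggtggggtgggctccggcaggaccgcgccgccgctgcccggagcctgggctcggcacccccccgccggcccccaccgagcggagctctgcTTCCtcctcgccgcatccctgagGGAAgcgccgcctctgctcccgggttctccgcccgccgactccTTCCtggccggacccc

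The ETS core occurred in all 5 windows, 6 times in DUSP6, 5 times in SPRY1, 4 times in SPRED2 and 3 times each in SPRY2 and SPRED1. It also occurred in 92.7% of all 35116 windows of the same length, so its presence does not set these genes apart. The longer ETS letters CCGGAA, which contain the core, occurred in the SPRY2 window and in 14.5% of all windows. TGACG occurred in the SPRY2 window and in 21.2% of all windows. GGAAGT (which overlaps the ETS core), the AP-1 letters TGANTCA, the full element TGACGTCA (which contains TGACG) and the TEAD letters GGAATG (which also overlap the ETS core) were found in none of the 5. They occurred in 19.5%, 6.57%, 1.65% and 11.9% of all windows in that order. The share of G and C was 57.2% in DUSP6, 70.4% in SPRY2, 58.8% in SPRED2, 45.6% in SPRY1 and 78.4% in SPRED1, with a median of 58% over all windows. Genes that were higher on the Kindlin-2 shRNA array and genes with nearly equal values thus both held the core, and the windows of the nearly equal pair, SPRY1 and SPRED1, had the lowest and the highest share of G and C among the 5.

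Of the 10 genes, 6 were at least 1.5-fold higher on the Kindlin-2 shRNA array (ETV4, ETV5, DUSP5, DUSP6, SPRY2 and SPRED2) and none was 1.5-fold lower. Among all genes kept, 5.1% passed 1.5-fold upward and 5.23% downward, and without the floor 3.77% of 18417 genes passed it upward. At least 2-fold higher were ETV4 and DUSP6, where 1.41% of all genes kept passed that fold. The median difference of the 9 kept genes was 0.66, and 0.62 with DUSP4 included. The other 4 genes lay between -0.13 and 0.20. In RNA of whole cultures, more cells expressing a gene and more RNA per cell cannot be told apart. The Sproutys and the Spreds each held at least 1 gene past 1.5-fold and at least 1 gene near 0. Both kept phosphatases and both ETV factors were past it, and the remaining phosphatase, DUSP4, was below the floor.

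**Figure D1:**
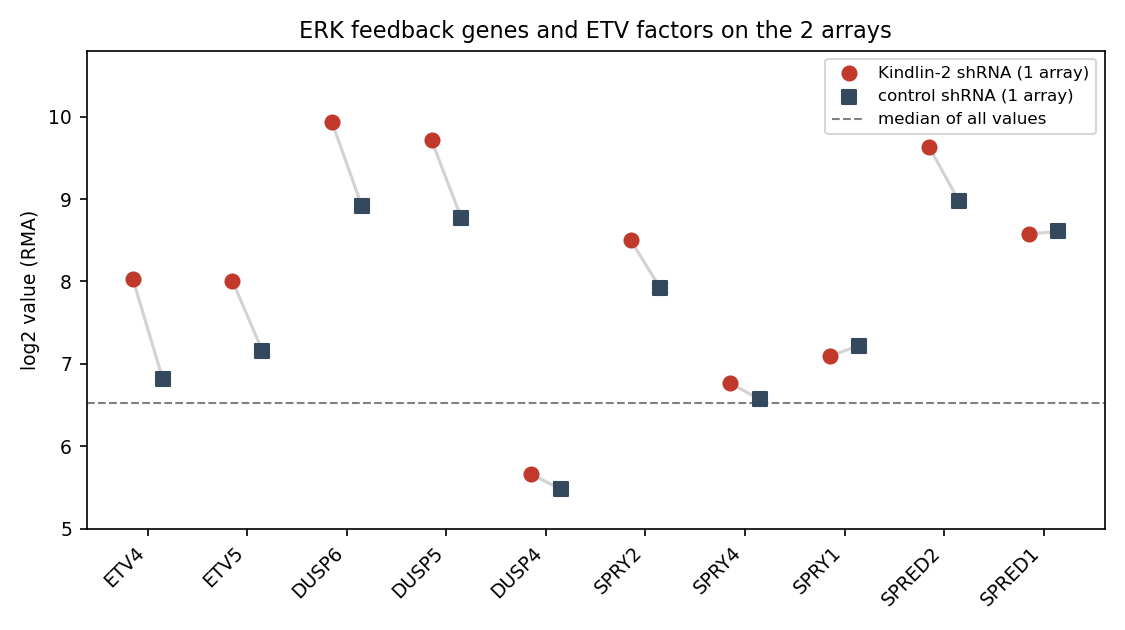
Log2 values of the 10 genes on the Kindlin-2 shRNA array (circles, left of each pair) and the control shRNA array (squares, right), with the table's median as a dashed line. ETV4, ETV5, DUSP6, DUSP5, SPRY2 and SPRED2 were higher on the Kindlin-2 shRNA array, SPRED1 was nearly level, and DUSP4 lay below the dashed line on both arrays.

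Both ETS factors were higher, with a median difference of 1.03, against 0.95 over the 3 phosphatases (DUSP4 included), 0.20 over the 3 Sproutys and 0.31 over the 2 Spreds. ETV4 (transcript cluster 8015806) had a log2 value of 8.03 on the Kindlin-2 shRNA array and 6.81 on the control array, a difference of 1.21 or 2.32-fold. Its control value was not far above the floor of 6.52, and 54.5% of all values were lower than that control value. Of the 11822 genes kept, 91 had a larger increase. ETV5 (transcript cluster 8092578) had 8.01 on the Kindlin-2 shRNA array and 7.16 on the control array, a difference of 0.85 or 1.80-fold, with 264 genes above it. ETV1, the third factor of the PEA3 group and not among the 10 genes, differed in the same direction, with 7.59 on the Kindlin-2 shRNA array and 6.97 on the control array (difference 0.62, 1.54-fold). All 3 PEA3 factors were thus past 1.5-fold, on 3 different chromosomes (17, 3 and 7).

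Genes that act on ETV factors showed smaller differences. CIC, the repressor that keeps PEA3 genes off until ERK relieves it, had 7.82 on the Kindlin-2 shRNA array and 8.09 on the control array (difference -0.27). Its partner ATXN1 differed by -0.50, with 6.83 on the Kindlin-2 shRNA array and 7.33 on the control array. COP1 and DET1, parts of a ubiquitin ligase that degrades ETV proteins, differed by 0.27 and 0.09. None of these 4 passed 1.5-fold, and ATXN1L was not analysed here. Of 14 kept ETS factors outside the PEA3 group, 1 passed 1.5-fold upward and 1 downward, with a median of -0.14. The higher one was ETS1, with 9.57 on the Kindlin-2 shRNA array and 8.52 on the control array (2.07-fold). The lower one was the epithelial factor ELF3, with 7.30 on the Kindlin-2 shRNA array and 9.66 on the control array (5.16-fold).

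DUSP5 and DUSP6 were higher and DUSP4 was dim. DUSP6 (transcript cluster 7965335), a cytoplasmic phosphatase with high selectivity for ERK, had a log2 value of 9.93 on the Kindlin-2 shRNA array and 8.91 on the control array. The difference of 1.02 (2.02-fold) was exceeded by 156 of the genes kept. DUSP5 (transcript cluster 7930413), its nuclear counterpart for ERK, had 9.71 on the Kindlin-2 shRNA array and 8.77 on the control array, a difference of 0.95 or 1.93-fold. DUSP4 (transcript cluster 8150076), a nuclear phosphatase that also acts on JNK and p38, had 5.66 on the Kindlin-2 shRNA array and 5.48 on the control array (difference 0.19). The table holds no detection calls, so a low value of this kind may be a dim or an absent transcript, and its fold of 1.14 carries little information.

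The other 7 MAP kinase phosphatases differed by less than DUSP5 and DUSP6. Of the cytoplasmic relatives of DUSP6, DUSP7 differed by 0.12. DUSP9 differed by -0.37, with 7.45 on the Kindlin-2 shRNA array and 7.82 on the control array. The nuclear immediate early phosphatase DUSP1 had 12.09 on the Kindlin-2 shRNA array and 11.90 on the control array (difference 0.19), and DUSP2, its relative of lymphoid cells, differed by -0.19. The phosphatases that act mainly on JNK and p38 lay on both sides of 0, with DUSP10 at 0.54 (1.45-fold higher), DUSP8 at -0.33 and DUSP16 at -0.54 (1.46-fold lower). None of them passed 1.5-fold. Over the 9 kept relatives of the 3 families and of the ETV factors, ETV1 alone passed 1.5-fold and the median difference was -0.07.

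Among the Sprouty genes 1 of 3 passed 1.5-fold. SPRY2 (transcript cluster 7972217), which binds the adaptor GRB2 and the ubiquitin ligase CBL, had a log2 value of 8.50 on the Kindlin-2 shRNA array and 7.92 on the control array. Its difference of 0.59 is a fold of 1.503, only just past the threshold of 1.5, and 596 genes kept had a larger increase. SPRY4 (transcript cluster 8114797) had 6.77 on the Kindlin-2 shRNA array and 6.57 on the control array, a difference of 0.20, with both values close to the floor of 6.52. SPRY1 (transcript cluster 8097282), which restrains RET signalling in the developing mouse kidney, had 7.09 on the Kindlin-2 shRNA array and 7.22 on the control array, a difference of -0.13. SPRY3, a family relative that did not reach the floor, differed by 0.33. In the promoter windows above, CCGGAA and TGACG stood before SPRY2 and not before SPRY1. However, a second RefSeq window of SPRY1, not shown, also held CCGGAA. The RefSeq window of SPRY4, not shown either, held TGACG.

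The Spred genes were split. SPRED2 (transcript cluster 8052689), which blocks the activation of RAF by RAS, had 9.63 on the Kindlin-2 shRNA array and 8.98 on the control array, a difference of 0.66 or 1.58-fold. SPRED1 (transcript cluster 7982564), which brings the RAS inhibitor neurofibromin to the membrane, had 8.58 on the Kindlin-2 shRNA array and 8.61 on the control array, a difference of -0.03. SPRED3 differed by -0.07, with 6.77 on the Kindlin-2 shRNA array and 6.83 on the control array. NF1, which encodes neurofibromin, differed by 0.22. Only SPRED2 of these family members and partners was therefore past 1.5-fold.

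**Figure D2:**
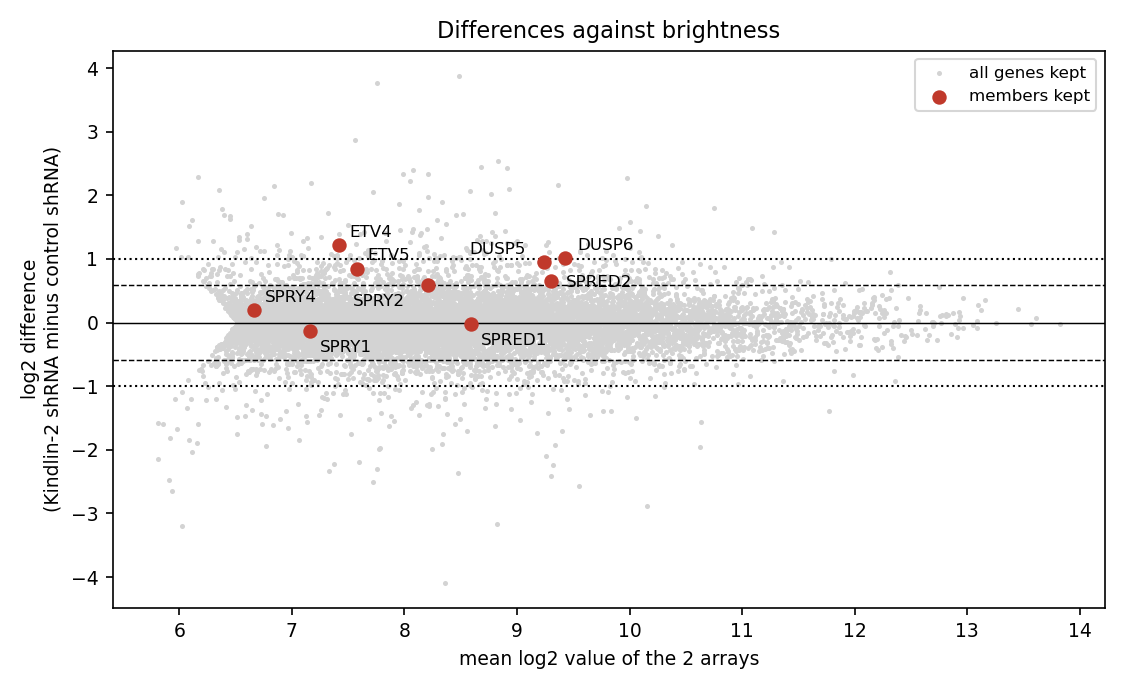
Log2 difference (Kindlin-2 shRNA minus control shRNA) against the mean log2 value of the 2 arrays for the 11822 genes kept (grey) and the 9 kept genes of the set (red). Dashed lines mark 1.5-fold and dotted lines 2-fold. ETV4 and DUSP6 lie above the upper dotted line, and SPRY1, SPRY4 and SPRED1 lie within the dense band around 0.

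The spread of differences at a given brightness gave the scale for these values. Genes kept were divided into 10 bins by mean log2 value, and the SD of the difference was 0.34 to 0.47 across the bins. That SD holds array noise and real differences together and is not a replicate error. ETV4 lay 3.41 bin SDs above 0, and 5 of the 1181 genes in its bin had a larger increase. DUSP6 lay 2.60 and DUSP5 2.42 bin SDs above 0, with 14 and 12 of the 1182 genes of their bins above them. ETV5 lay 2.11, SPRED2 1.68 and SPRY2 1.33 bin SDs above 0, with 24, 36 and 57 of the genes in their bins above them. SPRY4 (0.42), SPRED1 (-0.07) and SPRY1 (-0.36) were within 1 bin SD of 0.

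The 10 genes lie on 10 different chromosomes, so no 2 of them share a chromosome-wide shift. The median difference of the 50 nearest kept genes lay between -0.13 for DUSP6 and 0.11 for ETV5. None of the 50 neighbours of ETV4 and none of the 50 neighbours of ETV5 had a larger increase than the member itself. Over all genes kept, 0.77% had a larger increase than ETV4 and 2.23% a larger one than ETV5. None among 50 is near those shares, so it does not set these genes apart from their surroundings. The surroundings of DUSP6 ran the opposite way to the gene itself. Of its 50 neighbours, 10 passed 1.5-fold downward and 3 upward, the median of chromosome 12 was -0.21, and DUSP6 stood at 1.15 with the neighbour median subtracted. DUSP5 stood at 0.93, ETV4 at 1.26, ETV5 at 0.74 and SPRED2 at 0.65 after the same subtraction. SPRY2 was below 1.5-fold after it, at 0.52, since its neighbours had a median of 0.07. Some neighbours belong to the same pathway: TGFA lay among the 50 of SPRED2, and HBEGF and EGR1 among the 50 of SPRY4.

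**Figure D3:**
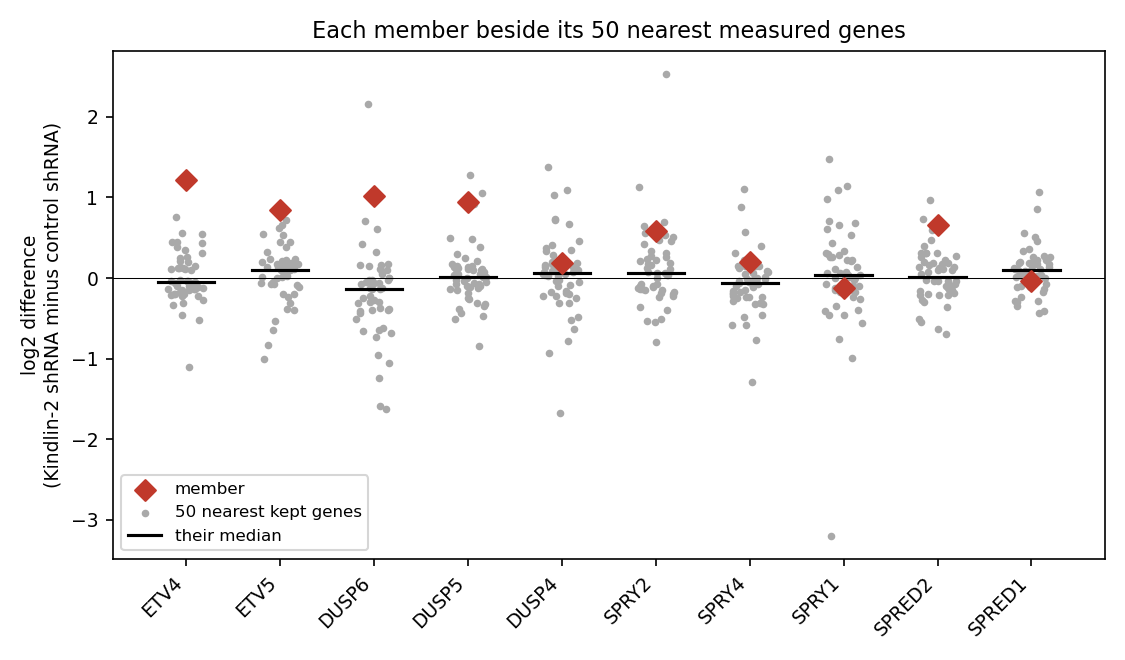
Log2 difference (Kindlin-2 shRNA minus control shRNA) of each of the 10 genes (diamonds) beside its 50 nearest kept genes on the same chromosome (grey points, with their median as a bar). ETV4 and ETV5 lie above all of their neighbours (0.77% and 2.23% of all genes kept had larger increases), and SPRY1 and SPRED1 lie among theirs.

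Upstream of these genes, some ligands of the cascade were higher and some receptors were lower. Of 9 kept ligands 3 passed 1.5-fold upward and 1 downward, with a median of 0.15. The 3 were ligands of the EGF receptor family. AREG, listed with them, was not analysed here. TGFA had 10.35 on the Kindlin-2 shRNA array and 9.38 on the control array (1.95-fold), EREG 10.34 and 9.42 (1.90-fold) and HBEGF 7.81 and 6.94 (1.84-fold), in the same order of arrays. GAS6, the ligand of AXL, was the lower one, with 8.21 on the Kindlin-2 shRNA array and 9.16 on the control array (1.94-fold). Of 11 kept receptor tyrosine kinases none was 1.5-fold higher and 4 were at least 1.5-fold lower, with a median of -0.49. FGFR2 had 6.46 on the Kindlin-2 shRNA array and 8.98 on the control array (5.70-fold lower), ERBB3 6.57 and 7.94 (2.58-fold lower), FGFR4 7.42 and 8.26 (1.79-fold lower) and PDGFRB 6.31 and 7.08 (1.71-fold lower). The Kindlin-2 shRNA values of FGFR2 and PDGFRB were under the floor of 6.52. Of the other fibroblast growth factor receptors, FGFR1 differed by 0.26, with 10.09 on the Kindlin-2 shRNA array and 9.83 on the control array, and FGFR3 by -0.44 (both named after their values were seen).

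The kinases and adaptors that carry the signal showed little difference. All 12 measured genes of the RAS, RAF, MEK and ERK core were below 0, between -0.54 and -0.01, where 46.4% of all genes kept were above 0. Their median was -0.16 and none passed 1.5-fold. MAPK3, which encodes ERK1, differed by -0.15, with 9.36 on the Kindlin-2 shRNA array and 9.51 on the control array. The other 5 genes listed for the core were not analysed here. Of 10 kept brakes and partners of the cascade, such as NF1 and CBL, none was 1.5-fold higher and 1 was lower. That gene was the ubiquitin ligase CBLB, with 8.09 on the Kindlin-2 shRNA array and 8.86 on the control array (1.70-fold). The median of these 10 genes was 0.11.

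Other genes known to be raised by ERK lay on both sides of 0. Of 8 such genes 1 passed 1.5-fold upward and 1 downward, with a median of -0.07. Cyclin D1 (CCND1) had 11.50 on the Kindlin-2 shRNA array and 10.89 on the control array (1.52-fold higher). The ephrin receptor EPHA4 had 7.49 on the Kindlin-2 shRNA array and 8.22 on the control array (1.65-fold lower). FOSL1, an AP-1 subunit, differed by 0.26 and PHLDA1 by -0.49. Of 7 kept immediate early genes none was 1.5-fold higher, and EGR1 was lower, with 8.17 on the Kindlin-2 shRNA array and 9.46 on the control array (2.44-fold). The median of the immediate early genes was -0.33. The set of 10 genes and these 2 lists were not compared by a test.

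**Figure D4:**
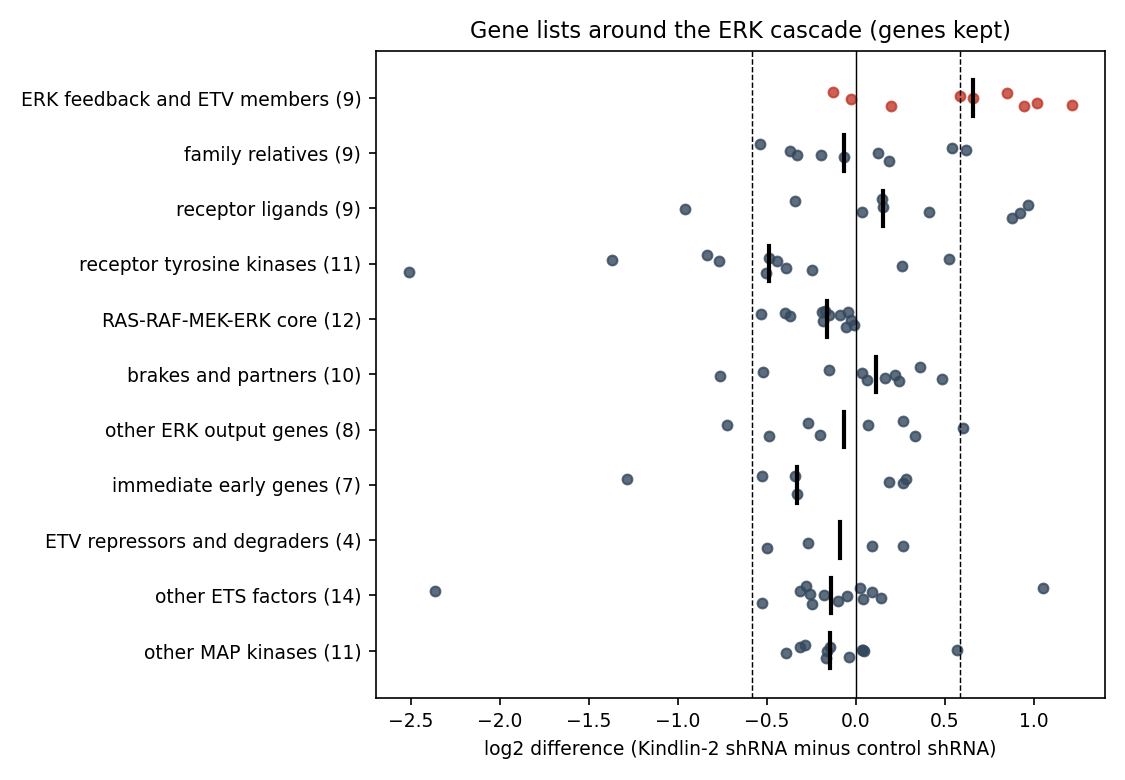
Log2 differences (Kindlin-2 shRNA minus control shRNA) of kept genes in 11 lists around the ERK cascade, 1 point per gene, with the list median as a bar, the number of genes in brackets and dashed lines at 1.5-fold. The 9 kept feedback and ETV genes have a median of 0.66, the 11 receptors a median of -0.49, and all 12 core genes lie below 0.

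The differences moved little under other treatments of the same 2 arrays. Across 6 alternatives for each gene, ETV4 stayed between 1.20 and 1.26, DUSP5 between 0.93 and 0.95, ETV5 between 0.74 and 0.87 and SPRED2 between 0.62 and 0.66. DUSP6 lay between 1.00 and 1.23, at the 2-fold line in its lowest value. SPRY2 lay between 0.52 and 0.61 and crossed the 1.5-fold line. SPRY4 stayed between 0.14 and 0.26, SPRED1 between -0.12 and -0.01 and SPRY1 between -0.17 and -0.11. These ranges cover the handling of the values and not the variation between cultures, which was not measured.

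**Figure D5:**
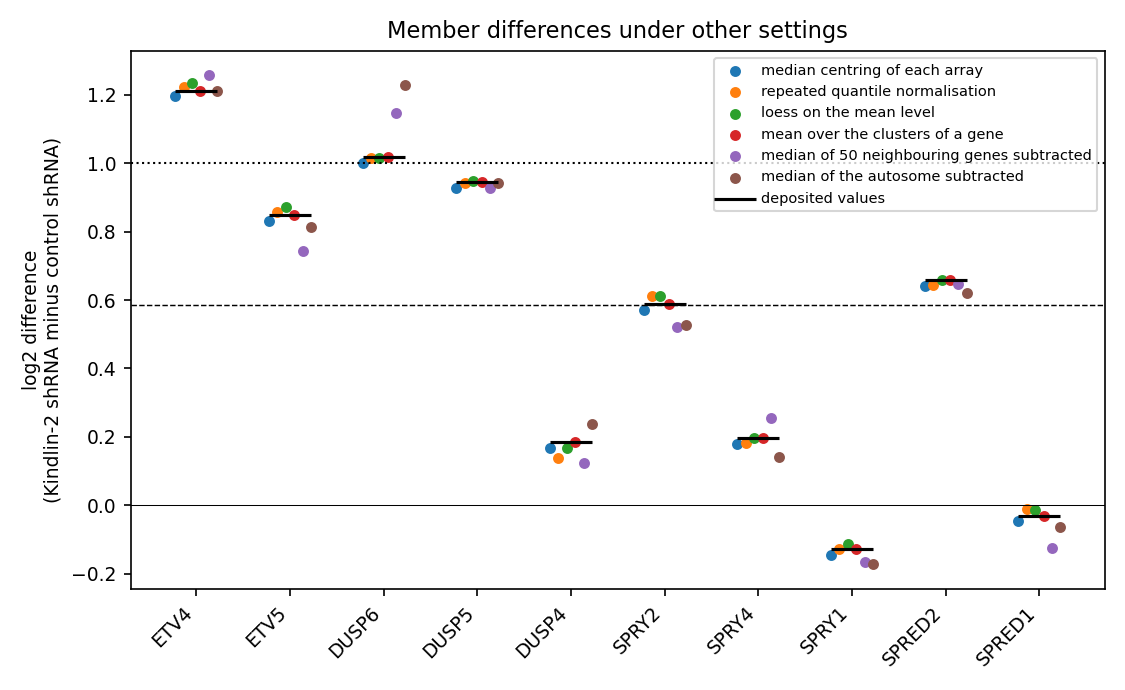
Log2 difference (Kindlin-2 shRNA minus control shRNA) of the 10 genes as deposited (black bars) and under 6 other settings (coloured points), with a dashed line at 1.5-fold and a dotted line at 2-fold. ETV4, ETV5, DUSP5 and SPRED2 stay on 1 side of the dashed line, while SPRY2 lies on both sides of it.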

How the data were processed

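RNA of 2 cultures was measured, 1 array per group, and the arrays were grouped by their shRNA label. The submitters' processing notes name RMA and Affymetrix Expression Console 1.4.1 for the log2 values that the authors deposited. RMA adjusts for background, aligns the distributions of arrays and summarises probes, and it compresses differences between dim values. The log2 scale was judged from the range of 2.13 to 14.04. Neither the library file nor the build of the array annotation is named in the labels.

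Symbols came from GEO's platform annotation, updated through Entrez IDs to RefSeq GRCh38.p14 (19429 of 19460 clusters with a single symbol). The brightest cluster stood for a gene, and genes were kept when their higher value reached 6.52. Differences, folds and counts were computed with Python 3.11.15 and pandas 2.3.3, and the counting was tested on simulated data. The number of arrays limits the precision. The 10 genes, the lists and the alternatives were chosen with earlier results of these data known. Genes outside the set were named when they were family relatives, acted on ETV factors, were MAPK3, NF1, CCND1, PHLDA1, FOSL1 or EGR1, or were among the 4 largest differences per direction past 1.5-fold in their list. Markers were named after their values were seen. Motifs were searched on both strands of RefSeq windows, and the core GGAA was added after the others. A comparison of protein sequences was planned and not made.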

Additional observations from a re-analysis of the deposited data

How the results depend on the processing

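Of 40 recomputed summaries of the 10 genes, 36 stayed close to the deposited ones (counts within 1.5 times, medians within 0.1). The count of genes at least 2-fold higher, 2 as deposited, was 1 after median centring of each array, since DUSP6 then lay at 1.00, just under the line. It was 1 with the floor at the 75th percentile of all values, where 5 genes of the set were left and ETV4 was not among them, and 0 at a 3-fold threshold. With that higher floor 4 genes were above 0, against 7 as deposited. The count at 1.5-fold was 6, and 5 after median centring or after subtraction of neighbour or autosome medians, each time without SPRY2, and 4 of the 5 genes left with the higher floor. Leaving out 1 gene of the set in turn gave medians of 0.62 to 0.75, and the mean was 0.59. None of the 60 recomputed differences of single genes moved by more than the SD of its brightness bin, and DUSP4, which has no bin, was held to that of the dimmest bin. Those SDs, 0.34 to 0.47, are a wide limit, and median centring moves every gene by the same small amount. Staying within that limit therefore says little about stability. Averaging the clusters of a gene could change none of the 10 genes, which had 1 cluster each. Its share of the 40 summaries and of the 60 differences was therefore fixed in advance. No paired analysis was possible because each group holds 1 array. Background correction and probe summary could not be varied, since scanner files were not used here.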

Other observations

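The parallel MAP kinase pathways, on which DUSP8, DUSP10 and DUSP16 act, showed small differences. Of 11 measured genes of the JNK, p38 and ERK5 pathways none passed 1.5-fold in either direction, and their median difference was -0.15. The highest was the JNK1 gene MAPK8, with a log2 value of 9.32 on the Kindlin-2 shRNA array and 8.75 on the control array (difference 0.57), named after its value was seen.

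Endothelial and leukocyte markers were mostly under the floor, and of the fibroblast markers only COL1A1 was above it on both arrays. All 5 endothelial markers, 4 of 5 measured leukocyte markers and 2 of 6 fibroblast markers were under it. The brightest of the 4 kept fibroblast markers, COL1A1, had 7.45 on the Kindlin-2 shRNA array and 7.28 on the control array. COL1A2, COL3A1 and PDGFRB had values on both sides of the floor, with COL1A2 and COL3A1 very close to it on both arrays. The leukocyte marker above the floor was CD68, which is also a lysosomal gene, with 10.25 on the Kindlin-2 shRNA array and 9.01 on the control array (2.37-fold). The pan-leukocyte marker PTPRC stood at 3.54 on the Kindlin-2 shRNA array and 3.53 on the control array. Of 7 kept genes listed as renal epithelial markers, none was 1.5-fold higher and 2 were lower, CDH16 (1.78-fold) and PAX2 (1.58-fold). The 7 also held PAX8, LHX1, the keratins KRT8 and KRT18, and VIM, and their median was -0.45. VIM alone was above 0, at 0.20. CDH16 was kept through its control value of 7.10 alone, since its value of 6.26 on the Kindlin-2 shRNA array was under the floor. The part of these markers in the differences of the ERK feedback genes was not tested.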
